A study of Mus musculus with 4 samples.

Results

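The 10 genes described here encode large SET-domain proteins of the families that methylate lysine 4 or lysine 36 of histone H3, and were taken by gene symbol: *Kmt2a*, *Kmt2b*, *Kmt2c*, *Kmt2d*, *Kmt2e*, *Setd1a* and *Setd1b* for the lysine 4 (H3K4) families, of which *Kmt2e* encodes a member not known to methylate histones, and *Setd2*, *Nsd1* and *Ash1l* for lysine 36 (H3K36). All 10 were present among the 56883 genes of the table, and all 10 were among the 14323 genes abundant enough to be tested, for which the mean over the 4 libraries had to reach 10 normalized counts. RNA was sequenced from tdTomato-positive cells that were sorted by flow cytometry (FACS) from the basal telencephalon of mouse embryos at E14.5. Control cells carried *Sst-Cre/tdTomato* and *Dnmt1* KO cells carried *Sst-Cre/tdTomato/Dnmt1 loxP2*, with 2 libraries of each genotype. All embryos thus carried the *Sst-Cre* driver and the tdTomato reporter, and the *Dnmt1* KO added the floxed *Dnmt1* alleles, which Cre recombines in postmitotic cells that express somatostatin (SST). Each library held the RNA of cells pooled from several embryos, so the spread between the libraries of a genotype is that between pools and not between embryos. A normalized count is the number of reads assigned to a gene divided by a size factor for the library, and recovered reads per library ranged from 6970247 to 8376711.

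In all 4 libraries the 10 genes were well expressed, and limma's test called 8 of the 10 higher and 0 lower in *Dnmt1* KO cells, at an adjusted p below 0.05. The differences were small. The means rose by 15.2% for *Kmt2a* to 22.4% for *Kmt2e* among the 8 genes that passed, and those of *Setd1a* and *Nsd1*, which did not pass, differed by 10.9% and 3.95%. Over all genes tested, 8.30% were called higher, 8.99% were called lower and 17.3% were called in either direction. Among the 752 protein-coding genes with a transcript at least as long and a mean count at least as high as the lowest of the 10, however, 43.8% were called higher and 35 genes were called lower, so the 8 of 10 is to be read against this share as well. *Ash1l*, *Kmt2a* and *Setd2* had already been singled out by the study in these same libraries, so their direction here is not independent evidence.

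H3K4 methylation marks active chromatin, with its trimethylated form at gene starts and its monomethylated form at enhancers. KMT2A, KMT2B, KMT2C, KMT2D, SETD1A and SETD1B work in multisubunit assemblies called COMPASS. In these, WDR5, RBBP5, ASH2L and DPY30 form a shared core that the catalytic subunit needs for full activity. H3K36 methylation lies over transcribed gene bodies and in broad intergenic domains, where it is read by proteins that include the DNA methyltransferases DNMT3A and DNMT3B. DNMT1, the enzyme deleted here, copies CpG methylation onto the new strand after DNA replication. CpG-rich gene starts are usually free of DNA methylation and attract H3K4 methyltransferases through proteins with a CXXC domain, a domain that KMT2A and KMT2B themselves contain.

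Since DNA methylation falls on CpG sites, the 250 bases upstream of the start of the reference transcript of each gene were read from the GRCm39 genome and searched for the letters CG, which read the same on both strands. Of the same window upstream of 12278 protein-coding genes tested, 99.1% held at least 1 CpG, with a median of 13 and quartiles of 8 and 20. The 10 genes held 9 to 45 CpGs with a median of 25. In 8 of the 10 the observed number was more than 0.6 of that given by the base composition, against 60.3% of all these windows. *Kmt2c* had the most CpGs, at 45, followed by *Ash1l* with 40, *Kmt2a* with 30, *Kmt2e* with 28, *Kmt2d* with 26 and *Setd2* with 24. The reference transcript of *Setd2* starts inside the annotated gene, so its window (chr9:110361320-110361569) lies within the gene span given for it. Lower numbers were found for *Setd1a* (19), *Setd1b* (15), *Kmt2b* (14) and *Nsd1* (9). The windows of *Kmt2c* and *Kmt2e*, the genes whose rise passed with any library left out, are printed 5′ to 3′ along the gene's strand with every CpG in capitals. They lie at chr5:25703811-25704060 on the minus strand (*Kmt2c*) and chr5:23639168-23639417 on the plus strand (*Kmt2e*) of GRCm39.
Kmt2c: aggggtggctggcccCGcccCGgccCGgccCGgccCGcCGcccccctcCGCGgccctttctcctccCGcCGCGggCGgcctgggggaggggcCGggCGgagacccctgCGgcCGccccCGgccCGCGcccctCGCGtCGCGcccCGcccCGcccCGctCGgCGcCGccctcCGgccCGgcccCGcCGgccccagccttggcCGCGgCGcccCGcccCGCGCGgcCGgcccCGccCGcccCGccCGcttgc
Kmt2e: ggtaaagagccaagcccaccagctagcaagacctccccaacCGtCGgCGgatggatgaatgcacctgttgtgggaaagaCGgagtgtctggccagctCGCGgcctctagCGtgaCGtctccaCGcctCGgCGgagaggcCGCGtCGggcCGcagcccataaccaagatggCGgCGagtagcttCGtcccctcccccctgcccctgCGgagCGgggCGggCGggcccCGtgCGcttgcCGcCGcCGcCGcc
The dense capitals of both windows describe the reference sequence only, since DNA methylation was not analysed here.

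The longest enzymes of the family are the paralogs KMT2C and KMT2D, which place monomethylation of H3K4 at enhancers. *Kmt2c* (chr5:25476796-25703810, minus strand, 59 exons, a transcript of 16.8 kb) had 2068 and 2133 normalized counts in the control and 2510 and 2465 in the KO libraries. The KO libraries lay above the control libraries and the groups did not overlap. The means were 2100 ± 45.7 and 2488 ± 32.1 (SD, n = 2 each) and the log2 fold change was 0.24 (SE 0.053, limma's adjusted p = 0.00499). *Kmt2d* (chr15:98729550-98769085, minus strand, 55 exons, 19.8 kb) had 2867 and 3017 in the control and 3365 and 3458 in the KO libraries, again with no overlap and with the KO libraries above. Its means of 2942 ± 106 and 3412 ± 65.5 (SD, n = 2 each) gave a log2 fold change of 0.21 (SE 0.050, limma's adjusted p = 0.00816). The call of *Kmt2c* held in 4 of 4 fits that left out a library, whereas that of *Kmt2d* was lost without control library 1, with limma's adjusted p = 0.0615, and without KO library 2, with limma's adjusted p = 0.0539.

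KMT2A and KMT2B are the mammalian counterparts of fly Trithorax, which keep developmental genes such as the Hox clusters active. *Kmt2a* (chr9:44714652-44792621, minus strand, 36 exons, 16.5 kb) had 2640 and 2691 normalized counts in the control and 3084 and 3056 in the KO libraries. Again the KO libraries were the higher and the groups were separate. The means of 2665 ± 36.2 and 3070 ± 20.1 (SD, n = 2 each) differed by a log2 fold change of 0.20 (SE 0.050, limma's adjusted p = 0.0101), and without KO library 1 the call was lost, with limma's adjusted p = 0.0545. *Kmt2b* (chr7:30268283-30288414, minus strand, 37 exons, 8.47 kb) had 1049 and 1163 in the control and 1320 and 1376 in the KO libraries, with no overlap. For *Kmt2b* the means were 1106 ± 80.6 and 1348 ± 39.5 (SD, n = 2 each), and the log2 fold change was 0.29 (SE 0.069, limma's adjusted p = 0.00948). Without control library 1, the lowest of the 4, it fell to 0.21 and the call was lost, with limma's adjusted p = 0.0844.

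SETD1A and SETD1B carry out much of the trimethylation of H3K4 at gene starts. *Setd1a* (chr7:127375842-127399294, plus strand, 19 exons, 6.49 kb) had the lowest counts of the 10, with 590 and 585 normalized counts in the control and 677 and 627 in the KO libraries. The groups did not overlap, but the KO libraries differed more from each other than the control libraries did. The log2 fold change of 0.15 (SE 0.081, 95% interval -0.02 to 0.32) did not pass, with limma's adjusted p = 0.237, and it passed in 0 of the 20 alternative settings. *Setd1b* (chr5:123280256-123306692, plus strand, 17 exons, 8.86 kb) had 1165 and 1113 in the control and 1342 and 1323 in the KO libraries. Here the KO libraries stood above the control libraries by more than the spread within either pair. The log2 fold change of *Setd1b* was 0.23 (SE 0.064, limma's adjusted p = 0.0228), but it held in 1 of the 4 fits with a library left out, with the weakest without control library 2, where limma's adjusted p = 0.114. DESeq2 on the recovered reads did not call *Setd1b* either (DESeq2's adjusted p = 0.0831).

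KMT2E has a SET domain like the others, and binds trimethylated H3K4 through a PHD finger. *Kmt2e* (chr5:23639418-23709233, plus strand, 27 exons, 7.35 kb) had 1885 and 1942 normalized counts in the control and 2338 and 2345 in the KO libraries. The KO libraries were nearly alike and stood well above the control libraries. The means of 1913 ± 40.4 and 2341 ± 4.96 (SD, n = 2 each) gave a log2 fold change of 0.29 (SE 0.054, limma's adjusted p = 0.00159), the smallest adjusted p of the 10 genes. With each library left out in turn its adjusted p stayed at or below 0.0137 by limma.

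Among the H3K36 enzymes, SETD2 trimethylates H3K36 along transcribed genes. *Setd2* (chr9:110358262-110447701, plus strand, 22 exons, 8.46 kb) had 1853 and 1932 normalized counts in the control and 2167 and 2302 in the KO libraries. The groups were separate, with the wider spread in the KO. Means of 1892 ± 55.3 and 2235 ± 95.5 (SD, n = 2 each) gave a log2 fold change of 0.24 (SE 0.057, limma's adjusted p = 0.00889). The call of *Setd2* was lost without KO library 2, with limma's adjusted p = 0.0882, and without control library 1, with limma's adjusted p = 0.0584. ASH1L dimethylates H3K36 and is a member of the Trithorax group. *Ash1l* (chr3:88857929-88986682, plus strand, 28 exons, 11.6 kb) had 1542 and 1503 in the control and 1877 and 1778 in the KO libraries, which did not overlap. Its log2 fold change was 0.26 (SE 0.059, limma's adjusted p = 0.00623), with means of 1522 ± 27.7 and 1827 ± 70.3 (SD, n = 2 each). Without KO library 1 the call of *Ash1l* was lost, with limma's adjusted p = 0.0563.

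The member that differed least was *Nsd1*. NSD1 mono- and dimethylates H3K36, and its intergenic mark helps to place DNMT3A. *Nsd1* (chr13:55357560-55466138, plus strand, 23 exons, 13016 bases) had the highest counts of the 10, with 3451 and 3762 normalized counts in the control and 3871 and 3624 in the KO libraries. KO library 2 lay below control library 2, so the groups overlapped. The means of 3606 ± 220 and 3747 ± 174 (SD, n = 2 each) differed by a log2 fold change of 0.06 (SE 0.054, 95% interval -0.06 to 0.17, limma's adjusted p = 0.542). The interval reaches a rise of 12.7%, below the mean rise of each of the 8 genes that passed. This limit lies within the 95% intervals of those genes, except that of *Kmt2e*, which starts just above it. The comparison thus does not by itself show that *Nsd1* rose less than the genes that passed.

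**Figure D1:**
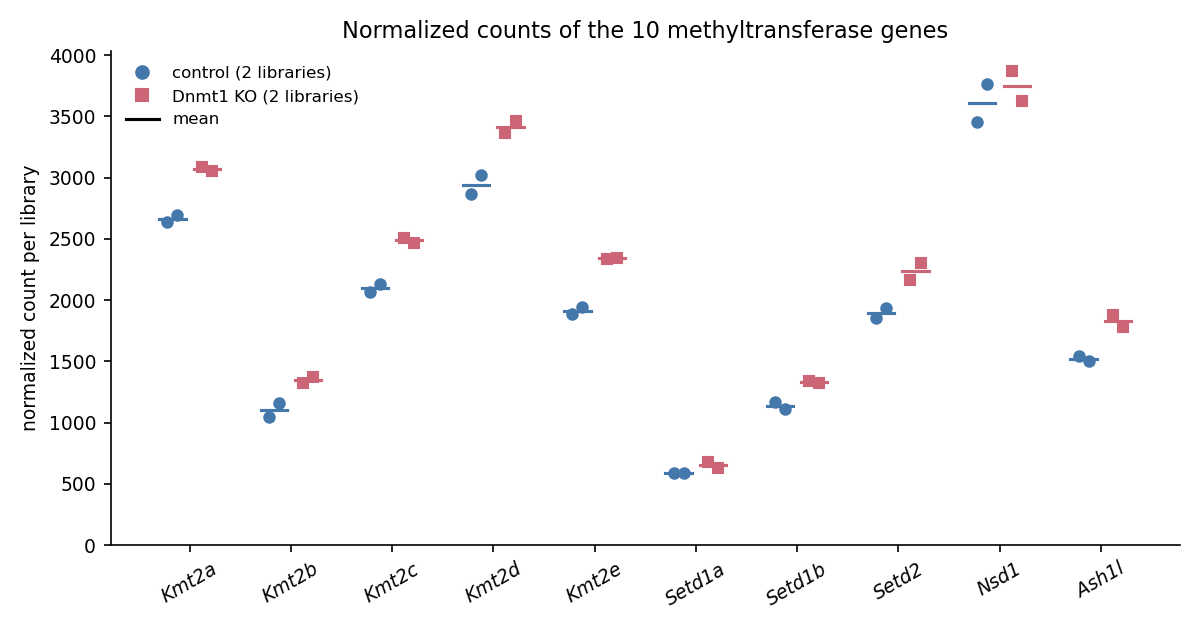
Normalized counts of the 10 genes in each library, with control libraries as circles, *Dnmt1* KO libraries as squares and a line at the mean of each pair. The KO points lie above the control points for 9 of the 10 genes, and overlap with them for *Nsd1*.

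The KO libraries lay above the control libraries without overlap for 9 of the 10 genes. Groups did not overlap, in either direction, for 57.4% of all genes tested, so this separation alone says little. With 2 libraries against 2, the smallest two-sided p of an exact permutation test is 0.333, which these 9 genes reached, against 0.667 for *Nsd1*. The calls therefore rest on limma's fit, which borrows the spread of genes of like abundance. Without that trend in the spread, limma called 0 of all genes, these 10 included, with 3339 of all genes at an unadjusted p below 0.05, whereas edgeR and DESeq2 on the recovered reads called 8 and 7 of the 10 higher. Between 573 and 3924 reads per library stood behind each of the 10 genes, a counting error of 4.18% at the lowest and 1.60% at the highest number, while the SD between libraries of a genotype was 0.212% to 7.29% of the mean.

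**Figure D2:**
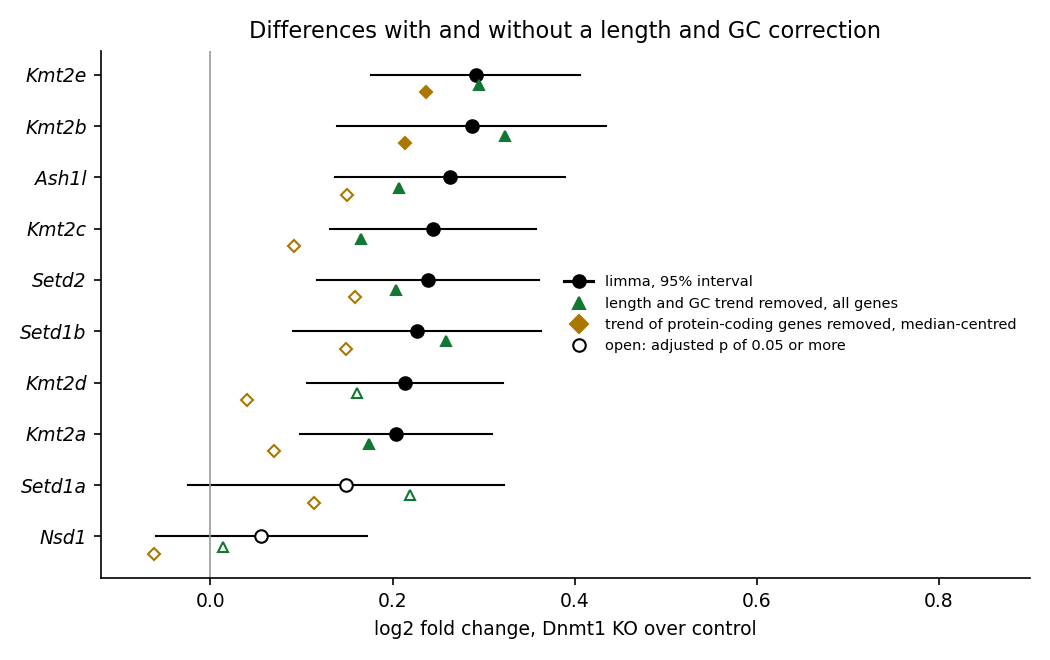
Log2 fold changes (*Dnmt1* KO over control) of the 10 genes as circles with 95% intervals, and after the removal of a length and GC trend over all genes (triangles) or over protein-coding genes with centring on the median (diamonds), filled where the adjusted p was below 0.05. Circles lie between 0.06 for *Nsd1* and 0.29 for *Kmt2e*, and after the second correction *Kmt2b* and *Kmt2e* are the filled diamonds.

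Summed over the 10 genes, control libraries had 19109 and 19839 normalized counts and KO libraries had 22551 and 22353, a mean difference of 15.3%. The 7 H3K4 genes together had 12263 and 12643 in the control and 14637 and 14650 in the KO libraries, 17.6% more in the KO, and 6 of these 7 were called. For the 3 H3K36 genes the sums were 6846 and 7196 in the control and 7915 and 7704 in the KO libraries, 11.2% more, with 2 of the 3 called. The smaller difference of the H3K36 sum comes with the high counts of *Nsd1* in it. The median log2 fold change over the 10 genes was 0.23, against -0.0033 over all genes tested and 0.17 over the 752 long and abundant genes.

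Between paralogs, the log2 fold changes differed by no more than 1 standard error, which does not show that they changed alike. Here and below, the standard error of a difference treats both genes as independent, though they were measured in the same libraries. The ratio of *Kmt2a* to *Kmt2b* was 2.52 and 2.31 in the control and 2.34 and 2.22 in the KO libraries, with overlapping ranges, and the difference between their log2 fold changes was -0.083 (SE 0.085). *Kmt2c* to *Kmt2d* stood at 0.721 and 0.707 in the control and 0.746 and 0.713 in the KO libraries, also overlapping, with a difference of 0.030 (SE 0.073). For *Setd1a* to *Setd1b* the ratio was 0.506 and 0.526 in the control and 0.504 and 0.474 in the KO libraries, with no overlap and a difference of -0.078 (SE 0.10). The ratio of *Nsd1* to each of the other H3K36 genes, set side by side after the values were seen, was lower in the KO libraries. It was 1.86 and 1.95 against 1.79 and 1.57 for *Nsd1* to *Setd2*, with log2 fold changes that differed by -0.18 (SE 0.079), and 2.24 and 2.50 against 2.06 and 2.04 for *Nsd1* to *Ash1l*, with a difference of -0.21 (SE 0.081).

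Levels of different genes can be compared only per length, and on normalized counts per kb of transcript *Nsd1* ranked first in the control cells with a mean of 277, followed by *Kmt2e* with 260 and *Setd2* with 224. *Kmt2a* (162) and *Kmt2d* (148) came next. The levels of *Ash1l* (131), *Kmt2b* (131), *Setd1b* (129) and *Kmt2c* (125) per kb each overlapped the neighbour in this order. The ends of this series, *Ash1l* (129 and 132) and *Kmt2c* (123 and 127), did not overlap in the control libraries. *Setd1a* was lowest with 90.5. In the KO cells *Kmt2e* ranked first with 319 per kb and *Nsd1* second with 288, and *Kmt2b* (159) and *Ash1l* (157) had changed places within overlapping ranges. All other ranks were as in the control. These levels depend on the length of 1 transcript per gene, that with the longest coding sequence, which the cells may not use alone.

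**Figure D3:**
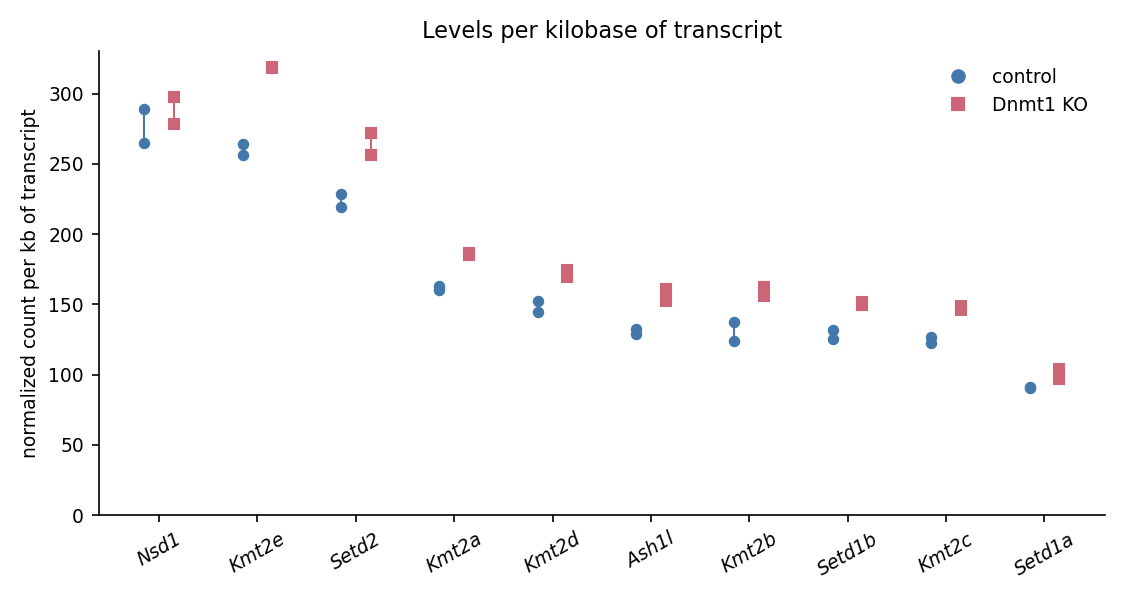
Normalized counts per kb of transcript in each library, ordered by the control mean, with circles for control and squares for *Dnmt1* KO libraries and a line joining each pair. *Kmt2e* moves from 260 to 319 and passes *Nsd1*, at 277 and 288, while *Setd1a* stays lowest.

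The 10 genes have long transcripts, of 6.49 to 19.8 kb with a median of 10.3 kb, against a median of 3.82 kb over the 12278 protein-coding genes tested. Their genes span a median of 73.9 kb in the genome, against 28.7 kb. Log2 fold changes rose with transcript length over all protein-coding genes, by 0.0705 to 0.0711 per doubling of length in the 4 KO to control pairs of libraries, while the slope between libraries of the same genotype was -0.00042 (control) and 0.00016 (KO). In the class of 8 to 12 kb, which holds *Kmt2b*, *Setd2*, *Setd1b* and *Ash1l*, 26.8% of 850 genes were called higher and 8.47% lower, with a median log2 fold change of 0.10. Above 12 kb, the class of *Nsd1*, *Kmt2a*, *Kmt2c* and *Kmt2d*, 71 of 197 genes were called higher and 19 lower, with a median of 0.18. *Kmt2e* and *Setd1a* lie in the class of 6 to 8 kb, where 14.9% of 1509 genes were called higher and the median was 0.06. The log2 fold changes of *Kmt2e* and *Kmt2b*, both 0.29, were thus farthest above the median of their class, whereas those of *Kmt2a* (0.20) and *Kmt2d* (0.21) lay close to it and that of *Nsd1* (0.06) lay under it.

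**Figure D4:**
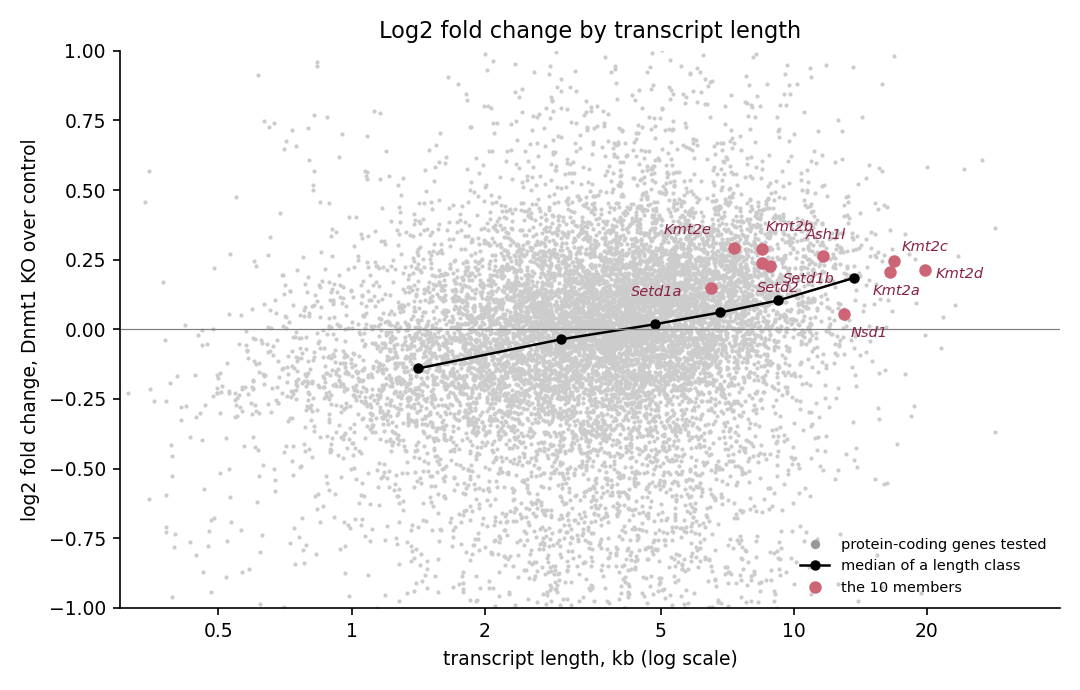
Log2 fold change (*Dnmt1* KO over control) against transcript length on a log scale for protein-coding genes tested (grey; 486 genes lie beyond the axis limit of 1 in either direction), with the median of each length class in black and the 10 genes in red. The black line climbs with length, and 9 of the 10 genes lie above it or close to it, with *Nsd1* below.

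When a smooth trend of log2 fold change over length and GC content was removed from all genes, 7 of the 10 genes were called, and the call of *Kmt2d* was lost (0.16, limma's adjusted p = 0.0577), while *Setd1a* moved up to 0.22 without passing (limma's adjusted p = 0.0770). This fit also shifted the genes as a whole upward. The median over all genes moved from -0.0033 to 0.042, and the share of higher calls from 48.0% to 57.4%, so its values carry that shift. When the trend was fitted to protein-coding genes alone, 5 of the 10 were called. With the values also centred on their median, the calls that remained were *Kmt2e*, at 0.24 with limma's adjusted p = 0.00316, and *Kmt2b*, at 0.21 with limma's adjusted p = 0.0379. On that scale *Setd2* stood at 0.16 (limma's adjusted p = 0.0548), *Ash1l* at 0.15 (limma's adjusted p = 0.0934) and *Kmt2a* at 0.07 (limma's adjusted p = 0.392). *Kmt2c*, called with the trend removed from all genes (0.16, limma's adjusted p = 0.0486), stood at 0.09 (limma's adjusted p = 0.282). *Setd1b* was at 0.15 (limma's adjusted p = 0.127), *Setd1a* at 0.11 (limma's adjusted p = 0.409) and *Kmt2d* at 0.04 (limma's adjusted p = 0.674). *Nsd1* turned to -0.06 (limma's adjusted p = 0.484). Both fits to protein-coding genes were chosen after seeing the data. The part of this length trend in the rise of the 10 genes cannot be told apart from the genotype, since all KO libraries share it.

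Several of the 10 genes share exonic bases with a neighbour. On the opposite strand, *Kmt2e* overlaps *Srpk2* (mean of 918 normalized counts), *Ash1l* overlaps *Dap3* (292), *Nsd1* overlaps *Rab24* (265) and *Setd1b* overlaps the long noncoding RNA *AI480526* (163). *Setd1a* overlaps *Gm49388* on the same strand (142). *Kmt2e* also overlaps the protein-coding genes ENSMUSG00000144248 and ENSMUSG00000144249 on the same strand, for which no counts were given. The study prepared its libraries with a stranded kit, but whether the reads were counted by strand is not stated. A share of the reads of these 5 genes may thus belong to the neighbour. For *Setd1a* and *Kmt2e*, which have neighbours on the same strand, this holds even if reads were counted by strand.

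Among the partners of these enzymes, no gene of the shared COMPASS core passed. Of its 4 subunits, 0 were called in either direction, with a median log2 fold change of -0.05. Over all genes tested 17.3% were called in either direction, so 0 of so few genes says little. *Wdr5*, which docks the catalytic subunit, had 220 and 225 normalized counts in the control and 259 and 227 in the KO libraries (0.13, SE 0.122, limma's adjusted p = 0.539). *Rbbp5* had 349 and 369 against 323 and 362 (-0.07, SE 0.104, limma's adjusted p = 0.706), and *Ash2l* had 932 and 839 against 853 and 881 (-0.03, SE 0.076, limma's adjusted p = 0.841), both with overlapping groups. *Dpy30*, the smallest subunit, had 202 and 270 against 181 and 213, which overlapped as well (-0.25, SE 0.149, limma's adjusted p = 0.292). *Dpy30* ranged on the log2 scale from -0.45 without control library 1 to -0.04 without control library 2. Its value was -0.02 with the length and GC trend removed from all genes, a fit that moved the median over all genes to 0.042. Core transcripts had a median length of 4.24 kb, against 8.86 kb for the 7 H3K4 members, and the difference between the core and these members was not tested.

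Of 12 subunits that belong to particular COMPASS complexes, 2 were called higher and 1 lower, with a median log2 fold change of 0.02. The shares over all genes tested were 8.30% higher and 8.99% lower. *Bod1l*, a partner of SETD1A, had 1356 and 1428 normalized counts in the control and 1702 and 1780 in the KO libraries (0.32, SE 0.061, limma's adjusted p = 0.00185). *Wdr82*, which ties the SETD1 enzymes to RNA polymerase II, had 1579 and 1552 against 1878 and 1804 (0.23, SE 0.058, limma's adjusted p = 0.0112), and its call was lost without control library 2 (limma's adjusted p = 0.0536) and without KO library 1 (limma's adjusted p = 0.0866). The groups of both genes were separate, with the KO above. *Men1*, which encodes menin of the KMT2A and KMT2B complexes, was the gene called lower, with 490 and 466 against 354 and 420 (-0.31, SE 0.102, limma's adjusted p = 0.0486). The call of *Men1* lay at the threshold and was lost with DESeq2, with no filter or a minimum mean of 1, with the length and GC trend removed, and in 3 of the 4 fits with a library left out. Without KO library 1 its log2 fold change was -0.19, with limma's adjusted p = 0.351.

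Of 11 other genes for H3K4 or H3K36 methyltransferases, 10 could be tested, with 1 called higher, 0 lower and a median log2 fold change of 0.01. Here and for the other lysines below, the shares over all genes tested were 8.30% higher and 8.99% lower. *Setd7*, whose product also methylates non-histone proteins, was the gene called, with 285 and 337 normalized counts in the control and 438 and 404 in the KO libraries (0.44, SE 0.108, limma's adjusted p = 0.0108), a call that was lost with DESeq2 and without control library 1 (limma's adjusted p = 0.0989). Among methyltransferases of other histone lysines, 1 of 12 was called higher and 1 lower, with a median of -0.09. *Kmt5b*, an enzyme for lysine 20 of histone H4, had 1006 and 1025 against 1163 and 1220 (0.23, SE 0.066, limma's adjusted p = 0.0255). *Ezh2*, the catalytic subunit of Polycomb complex PRC2 that is abundant in dividing progenitors, had 1497 and 1476 against 1243 and 1326 (-0.21, SE 0.063, limma's adjusted p = 0.0303). The calls of both were lost with DESeq2 and with no filter, and each held in 1 of the 4 fits with a library left out.

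Of 6 genes for enzymes that remove H3K4 methylation, 3 were called higher and 0 lower, with a median log2 fold change of 0.12. Over all genes tested 8.30% were called higher, and 26.8% in the class of 8 to 12 kb. The median transcript of these demethylase genes was 8.35 kb. With the trend of protein-coding genes removed and centring on the median, 2 of the 6 were called higher. *Kdm5a* had 701 and 765 normalized counts in the control and 905 and 989 in the KO libraries (0.37, SE 0.078, limma's adjusted p = 0.00404). *Kdm1b* had 243 and 256 against 316 and 325 (0.36, SE 0.109, limma's adjusted p = 0.0329), a call that held in 0 of the 4 fits with a library left out. The third, *Kdm5b*, is named after its values were seen, with 2695 and 2643 against 3154 and 3216 (0.25, SE 0.050, limma's adjusted p = 0.00234). Of 7 H3K36 demethylase genes 6 could be tested and 0 were called, with a median of 0.03.

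Of 13 genes for readers of H3K4 methylation, 3 were called higher and 0 lower, with a median log2 fold change of 0.10, where 8.30% of all genes tested were called higher. *Spin1* had 1196 and 1156 normalized counts in the control and 1421 and 1421 in the KO libraries (0.27, SE 0.062, limma's adjusted p = 0.00667). *Ing5* was scarce, with 56.4 and 104 against 115 and 155 (0.80, SE 0.247, limma's adjusted p = 0.0372), and its log2 fold change ranged from 0.36 to 1.23 with a library left out. Its call was lost without control library 1 (limma's adjusted p = 0.343), without KO library 2 (limma's adjusted p = 0.101), with DESeq2 and with no filter. *Bptf*, the long subunit of the remodeller NURF, was the third, with a log2 fold change of 0.18 that held in 1 of the 4 fits with a library left out, and is named after its values were seen. Calls in the lower direction made up 8.99% of all genes tested. Of 12 genes for readers of H3K36 methylation, 0 were called higher and 1 lower, with a median of -0.09. That gene was *Morf4l1*, a chromodomain reader, with 2366 and 2391 against 2096 and 2061 (-0.19, SE 0.053, limma's adjusted p = 0.0193), a call that held in 0 of the 4 fits with a library left out.

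**Figure D5:**
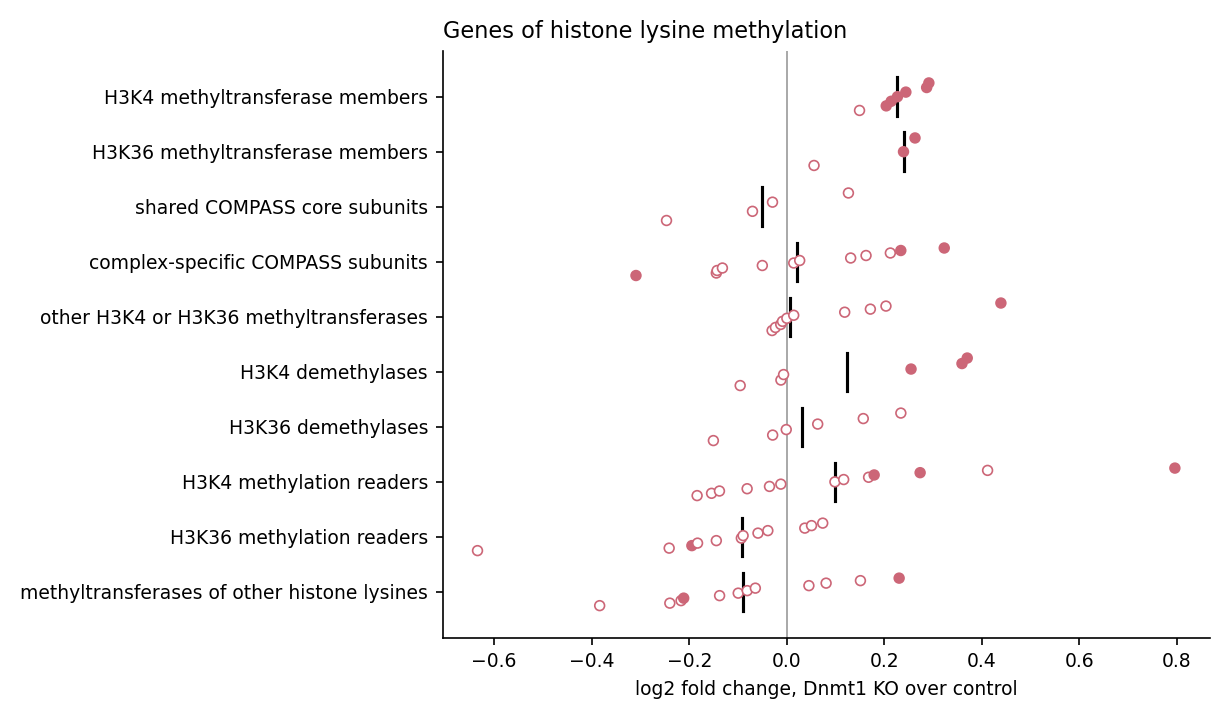
Log2 fold changes (*Dnmt1* KO over control) of the tested genes of each list of histone lysine methylation genes, filled where limma's adjusted p was below 0.05, with a vertical bar at the median of each list. The bars of the H3K4 and H3K36 members stand at 0.23 and 0.24, and that of the COMPASS core at -0.05.

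Marker genes of several cell types differed between the genotypes as well, and their values stand beside every result above. *Dnmt1* itself had 2238 and 2341 normalized counts in the control and 2164 and 2210 in the KO libraries (-0.07, SE 0.054, limma's adjusted p = 0.461). Gene counts take in the exons outside the floxed part, so they check the labels only in part. Of 9 interneuron markers 8 were called higher and 0 lower, with summed levels of 16273 to 16350 in the control and 23340 to 23384 in the KO libraries, and *Sst* was the most abundant. Markers of other cells were lower in the KO. Of the blood markers 7 of 7 tested were called lower, with sums of 2400 to 2591 against 576 to 590. Of 9 markers of radial glia and dividing cells 7 were called lower and *Sox2* higher, with sums of 13635 to 13642 against 8515 to 8676. Of 8 markers of the excitatory lineage 6 were called lower (2660 to 2696 against 1377 to 1510), as were 6 of 7 tested for vascular cells and microglia (439 to 467 against 174 to 176). No marker was at 0 in all 4 libraries. *Xist*, which is expressed from the inactive X chromosome of female cells, had 1402 and 1360 normalized counts against 3428 and 3311, and 0 of 4 Y-linked genes were called. The 10 genes lie on autosomes, and the part of embryo sex in their values was not tested. In bulk RNA, a change in the number of cells of a type and a change in RNA per cell cannot be told apart, and the part of these marker differences in the rise of the 10 genes was not tested.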

How the data were processed

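RNA sequencing of 2 control and 2 *Dnmt1* KO libraries was analysed, with groups and replicate numbers as labelled. Per the submitters' processing notes, the authors used Trim Galore, STAR on the GRCm39 genome, Salmon and DESeq2. The deposited signal holds normalized counts, each a whole number of reads over the size factor of its library. On the values above 0, 89965 of 89965 (100%) were whole multiples of the unit of their library to within 0.0001 of a read, and these whole reads entered the count tests used as alternatives.

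Where the mean reached 10, log2 values of the normalized count plus a pseudocount of 1 were tested by limma 3.58.1 under R 4.3.3 (lmFit and eBayes, prior variance following abundance), with genotype as the only term, and Benjamini-Hochberg adjustment over all genes tested. Genes were called at an adjusted p below 0.05. Fold changes on this scale slightly understate those of scarce genes. Alternatives were pseudocounts of 0.5 and 10, means of at least 1 and 50 or no filter, quantile normalization, TMM factors, limma-voom, limma with no variance trend, edgeR 4.0.16, DESeq2 1.42.0, removal of a length and GC trend (splines with 5 degrees of freedom), a replicate block and leaving out each library. The code was tested on simulated data. Figures were drawn with matplotlib 3.10.9 in Python 3.11.15.

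Lengths, positions, strands and upstream windows came from the GENCODE annotation and GRCm39 genome. Length, exon number and GC content were those of the transcript with the longest coding sequence. The windows lie upstream of the Ensembl canonical transcript, called the reference transcript above, which can be a different one. The members and the lists were chosen with earlier results of these data known. Named genes were all 10 members, *Dnmt1*, the COMPASS core, up to 2 called genes in each direction with the largest fold changes from each other list of histone methylation genes, and the most abundant gene of marker lists. The methylation, ChIP and cortical data were not analysed here.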

Additional observations from a re-analysis of the deposited data

How the results depend on the processing

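Of the log2 fold changes of the 10 genes under 20 alternatives each, 166 kept their direction and their side of the threshold, 30 kept the direction and lost the call, and 4, all of *Nsd1*, changed sign. Without the variance trend limma called 0 of the 10 genes, 0 COMPASS subunits and 0 of all genes (smallest limma adjusted p = 0.0592, with 3339 genes at an unadjusted p below 0.05). DESeq2 called 1327 genes, against 2476. The median log2 fold change of the 10 genes was 0.19 with quantile normalization. When the trend over length and GC content was removed from protein-coding genes, an alternative chosen after seeing the data, the median was 0.19 with 5 members called and the share of higher calls over all genes moved from 48.0% to 62.4%. With centring on the median, also added after seeing the data, these values were 0.13, 2 and 45.6%. *Nsd1* stood at -0.0052 with quantile normalization, and at -0.0034 with the trend removed or -0.062 with centring, and *Rbbp5* at 0.012 with the trend removed. *Dnmt1* turned to 0.018 when the trend was removed from all genes, a fit that moved the median over all genes to 0.042 and the share of higher calls to 57.4%. Leaving out 1 library at a time gave 5 to 7 members called, 1525 to 2205 of all genes and 1 to 4 COMPASS subunits, against 3, with log2 fold changes of -0.0064 to 0.12 for *Nsd1*, -0.15 to 0.012 for *Rbbp5* and -0.11 to 0.047 for *Ash2l*. In these fits the lone library is assumed to vary like the others. The replicate block called 8 members and 2957 of all genes, and with the block and the trend removed *Dnmt1* stood at 0.018. The deviations of libraries with the same number had a correlation of -0.0847 over genes, and the numbers are not described as pairs. Taken as the median over annotated transcripts, the length of the members was 2609 bases. The cause of these differences was not tested.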
